A study of Mus musculus with 7 samples.

Results

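The genes described here make, move and export cholesterol, and they were measured by bulk RNA-seq in mouse skin cells of day 36, sorted for tdTomato. They are 30 of the 25322 genes in the deposited table, taken by gene name: 18 enzymes of sterol synthesis, 4 genes that control SREBP, 4 genes of uptake and transfer inside the cell, and 4 genes of LXR signalling and efflux. All 30 passed the filter on low values described below. Zfp750, the mouse counterpart of human ZNF750, encodes a zinc finger protein known for its part in epidermal differentiation, and its loss was the tested condition. The 4 Zfp750_KO libraries carried Zfp750 fl/fl with an Lrig1-CreER or Lrig1-CreERT2 allele and a Rosa26 allele, given as +/- in 3 of them and as -/- in 1. The 3 control libraries carried the same kinds of Cre and Rosa26 +/- alleles, with Zfp750 given as wt/fl in 2 and as wt/wt in 1. Both groups received 4-OHT, the active tamoxifen metabolite, as pups, from day 4 to 7 or from day 5 to 8, so the controls had also been exposed to active Cre. Cre was driven from Lrig1, a gene of hair follicle and sebaceous gland stem cells, so the labelled cells are those that had expressed Lrig1 and their descendants. Nothing in the labels ties each library to a separate animal, and the p-values therefore rest on the spread between libraries, which may be partly technical.

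Cholesterol is built from acetyl-CoA through mevalonate, the isoprenoid units, squalene and lanosterol. The transcription factor SREBP2 is held in the endoplasmic reticulum by Scap and the Insig proteins while sterol is plentiful. When sterol falls, it is cut free and switches on the synthesis enzymes together. Oxysterols instead activate the LXR receptors, which switch on the exporters Abca1 and Abcg1 and the ubiquitin ligase Mylip. In skin, epidermal keratinocytes and sebocytes are known for high lipid synthesis, and macrophages for cholesterol uptake and export.

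The promoter windows of 4 synthesis genes are shown because these enzymes carry motifs through which SREBP2 and its partner factor NF-Y are known to act. Sequences are from RefSeq on GRCm38.p6, from 250 bases before to 50 bases after the annotated start, 5′ to 3′ on the gene's strand. Capitals mark CCAAT, the NF-Y motif, which reads ATTGG on the other strand, and in Hmgcs1 also the match to TCACNCCAC, a form of the sterol regulatory element. Hmgcs1 is shown because it alone among the synthesis windows holds TCACNCCAC. Idi1, Cyp51 and Msmo1 were added after their values were seen, as the other synthesis genes with a window that rose in the fit with the macrophage score described below.
Hmgcs1 (chr13:119690101-119690400, plus strand): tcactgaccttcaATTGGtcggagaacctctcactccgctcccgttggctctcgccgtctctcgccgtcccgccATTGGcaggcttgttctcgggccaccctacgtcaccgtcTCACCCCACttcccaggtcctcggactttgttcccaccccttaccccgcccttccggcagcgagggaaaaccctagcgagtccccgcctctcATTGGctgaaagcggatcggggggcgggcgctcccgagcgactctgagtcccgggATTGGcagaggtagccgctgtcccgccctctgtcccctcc
Idi1 (chr13:8885356-8885655, plus strand): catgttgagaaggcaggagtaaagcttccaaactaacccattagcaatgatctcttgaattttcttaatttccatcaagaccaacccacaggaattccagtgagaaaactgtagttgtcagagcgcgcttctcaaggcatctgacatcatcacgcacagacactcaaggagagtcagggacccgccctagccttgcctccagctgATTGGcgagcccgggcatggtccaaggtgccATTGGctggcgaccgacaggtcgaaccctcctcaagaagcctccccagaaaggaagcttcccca
Cyp51 (chr5:4104648-4104947, minus strand): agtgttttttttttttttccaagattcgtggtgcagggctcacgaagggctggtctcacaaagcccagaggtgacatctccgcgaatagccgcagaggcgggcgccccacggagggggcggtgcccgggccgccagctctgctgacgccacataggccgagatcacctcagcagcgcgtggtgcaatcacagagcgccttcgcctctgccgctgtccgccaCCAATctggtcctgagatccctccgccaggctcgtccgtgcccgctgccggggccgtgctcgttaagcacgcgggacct
Msmo1 (chr8:64733529-64733828, minus strand): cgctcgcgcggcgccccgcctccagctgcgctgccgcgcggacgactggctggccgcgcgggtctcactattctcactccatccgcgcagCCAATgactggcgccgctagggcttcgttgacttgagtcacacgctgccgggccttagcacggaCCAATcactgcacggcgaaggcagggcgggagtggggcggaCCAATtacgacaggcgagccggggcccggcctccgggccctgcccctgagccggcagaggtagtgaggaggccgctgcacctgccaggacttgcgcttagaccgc

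A RefSeq window was at hand for 23 of the 30 genes, among them 15 of the 18 synthesis enzymes. CCAAT, searched on both strands, was found in windows of 14 of these 15 enzymes, all but Acat2, and of 19 of the 23 genes, against 41.06% of 27025 genes in the RefSeq table. The 15 enzymes held 32 matches, 20 of them wholly within the 100 bases before the start, and 9 enzymes held at least 2. GGGCGG, the Sp1 motif, was found for 21 of the 23 genes, against 38.2% of genes. CACGTG, an E-box to which SREBPs are also known to bind, was found for 6 of the 23 (Hsd17b7, Sc5d, Dhcr7, Scap, Insig1 and Abca1), against 8.093% of genes. TCACNCCAC was found for Hmgcs1 alone, at bases -137 to -129 from the start, against 1.436% of genes. No match of any of these motifs overlapped a match of a different one in the windows of these genes. A match describes the letters in the window and does not show that a factor is bound.

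**Figure D1:**
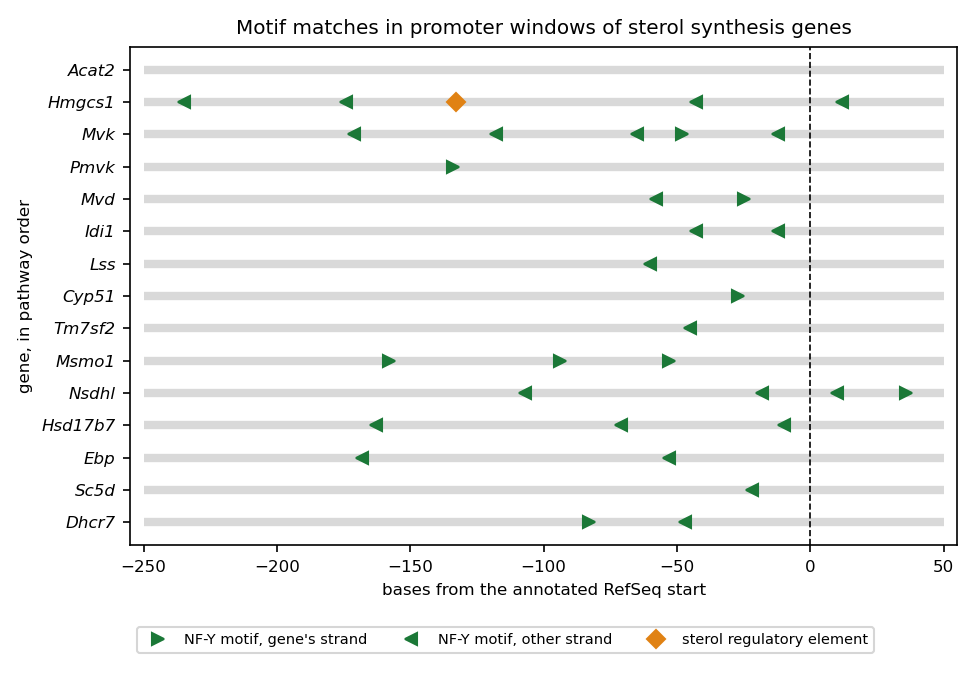
Positions of NF-Y motif matches (triangles, pointing right for the gene's strand and left for the other strand) and of the sterol regulatory element (diamond) in bases from the annotated start, in the promoter windows of the 15 synthesis enzymes with a RefSeq window. Of the 32 NF-Y matches, 20 lie in the 100 bases before the start, and the diamond stands in Hmgcs1 alone.

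The libraries held an estimated 9.55 to 15.2 M reads in Zfp750_KO and 9.09 to 17.1 M in control. Zfp750 itself had values of 48.9, 45.4, 10.1 and 29.6 in the Zfp750_KO libraries and 335, 51.2 and 61.9 in the control libraries. Every knockout value lay below every control value, and the exact two-sided permutation p over 35 splits was 0.0571, the smallest that 4 against 3 libraries allow. The log2 difference was -1.47, and -0.69 without control 4F. Control 4F also stood apart in its cell content. Ptprc, the pan-leukocyte gene CD45, stood at 40.1 per M in Zfp750_KO 1M, 39.2 in 2M, 1250 in 3F and 982 in 6F, against 4.46 per M in control 4F, 474 in 4M and 700 in 7F. Col1a1, a fibroblast collagen gene, reached 5480 to 42600 per M in Zfp750_KO and 38400 to 81000 per M in control, while the basal keratinocyte gene Krt5 reached 67.5 to 909 per M in Zfp750_KO and 83.5 to 1110 per M in control. Fibroblast, leukocyte and keratinocyte genes were thus all read in the sorted cells, and leukocyte genes differed widely within both groups. In bulk samples fewer cells of a type and less RNA per cell cannot be told apart.

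Values below are normalized counts, given in the order Zfp750_KO 1M, 2M, 3F and 6F and then control 4F, 4M and 7F. Log2 differences are Zfp750_KO minus control on log2(value + 11.9), which understates the change of low genes. Tests are limma fits over the 18141 genes with at least 1 per M in at least 3 libraries, with Benjamini-Hochberg adjustment over all of them and a threshold of 0.05. The first fit has the group alone. The second adds a macrophage score, a mean of log2 levels over 21 genes of macrophages and monocytes, which was 7.46, 7.10, 11.31 and 11.04 in the Zfp750_KO libraries and 5.78, 10.2 and 10.4 in the control libraries.

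With the group alone, no gene of the 18141 passed the threshold (0% called), and so none of the 30. Most sterol genes still lay on the higher side in Zfp750_KO: 24 of the 30 log2 differences were above 0, against 53.3% of all genes tested, and their median was 0.47 against 0.02 over all genes. The synthesis enzymes had 16 of 18 above 0 and a median of 0.59, the SREBP control genes 3 of 4 and 0.23, the uptake and transfer genes 4 of 4 and 0.60, and the LXR and efflux genes 1 of 4 and -0.15. At an unadjusted p under 0.05, 7 of the 30 were higher, against 2.18% of all genes, and Abca1 was lower, against 3.65%. Values of Zfp750_KO and control did not overlap for 6 higher genes (Cyp51, Msmo1, Ebp, Srebf2, Stard4 and Scarb1), against 3.19% of all genes, and for 1 lower gene (Abca1), against 3.91%.

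**Figure D2:**
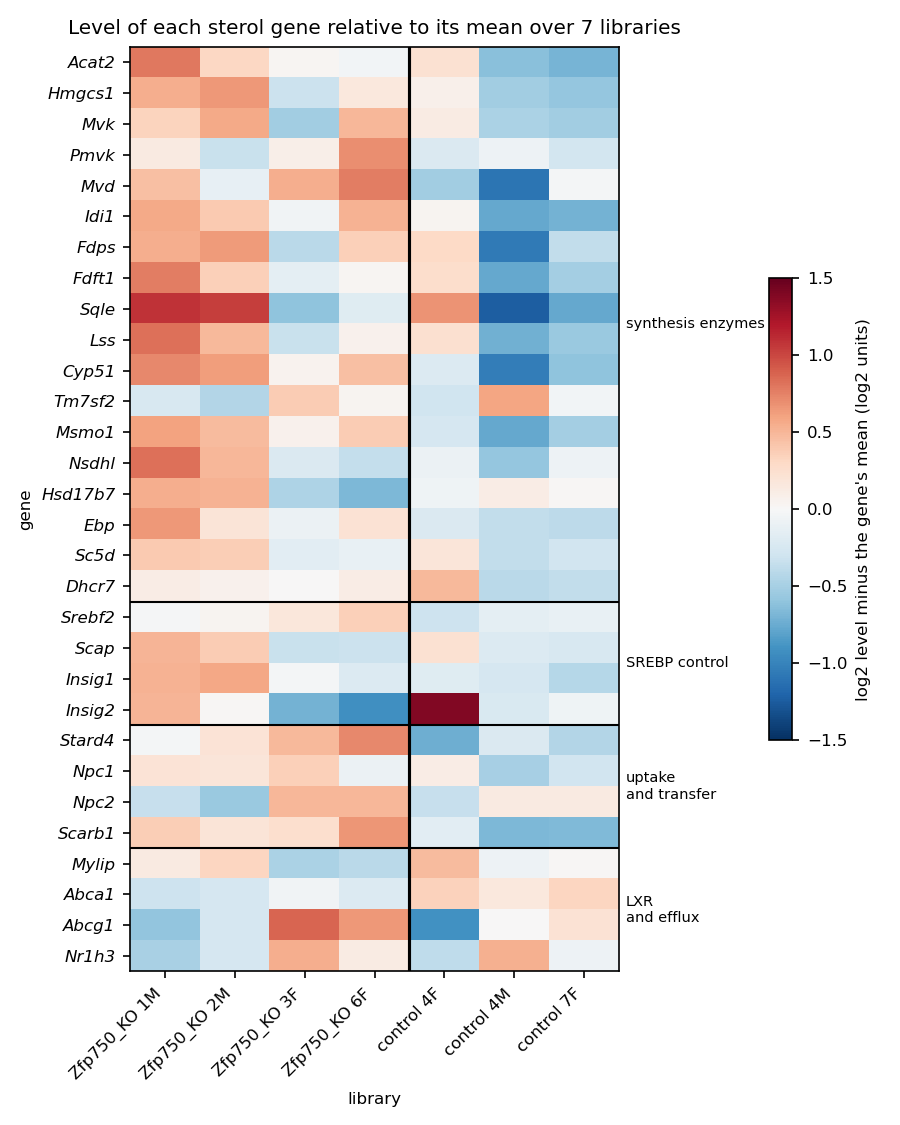
Log2 level of each of the 30 genes minus its mean over the 7 libraries (colour, red above and blue below the mean, log2 units), with the 4 Zfp750_KO libraries left of the 3 control libraries and the genes grouped by role. Cyp51 and Msmo1 are above control in all 4 Zfp750_KO libraries, Abca1 is below, and Sqle and Insig2 differ as much within a group as between the groups.

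With the macrophage score in the fit, 7 of the 30 genes rose, against 1.32% of all genes tested, and none fell, against 2.1%. They were 5 synthesis enzymes (Hmgcs1, Idi1, Sqle, Cyp51 and Msmo1) and 2 genes of uptake and transfer (Stard4 and Scarb1). Of the 30 log2 differences 24 were above 0, against 52.4% of all genes, and the synthesis enzymes had 17 of 18 above 0 with a median of 0.67, against 0.02 over all genes. The count depends on single libraries. It was 2 without Zfp750_KO 1M (0.695% of all genes higher), 2M (0.579%) or 6F (0.948%), and 4 without Zfp750_KO 3F (0.976%). It was 8 without control 4F (3.27%) and 2 without control 7F (0.419%). Without control 4M limma called 0 of the 30 (0.27%), and no other tool was run. At an unadjusted p under 0.05 that fit had 14 of the 30, with both directions counted together. The share of all genes was not worked out for it, so the 14 cannot be set against a background. The score was put into the fit with earlier results of these data known.

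**Figure D3:**
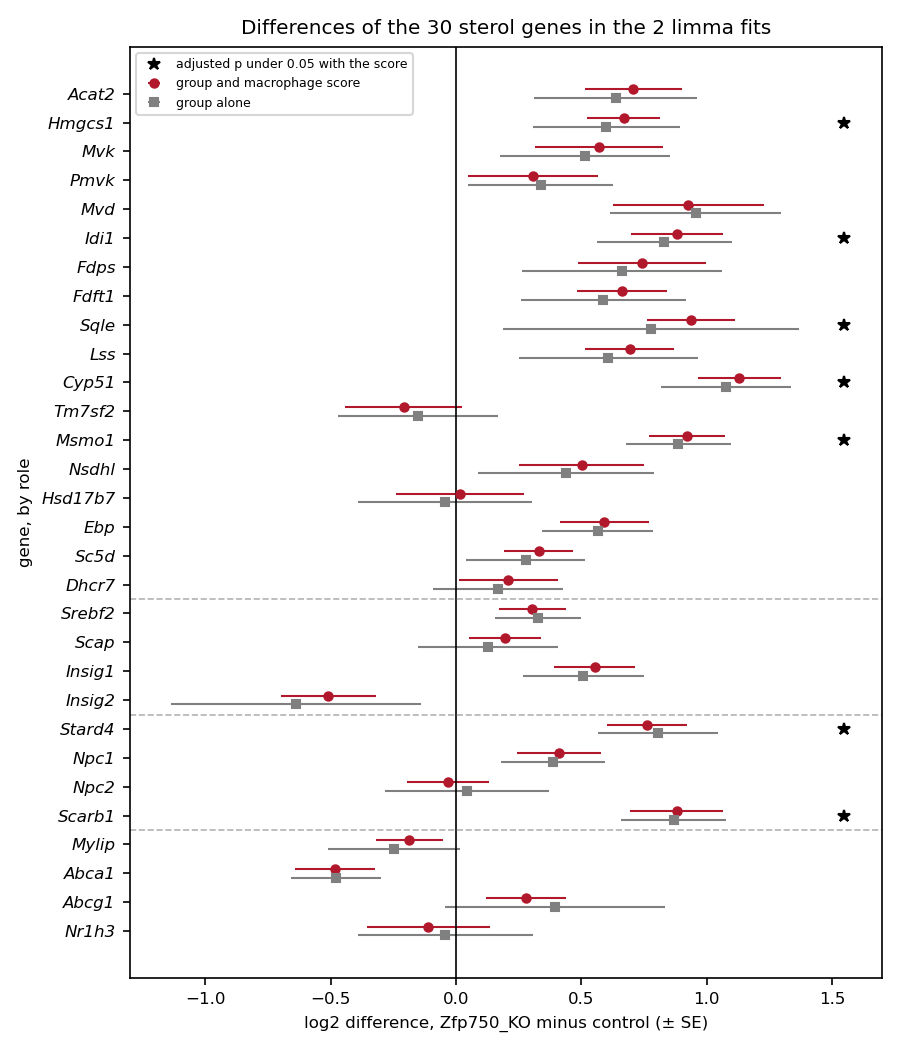
Log2 difference of each gene, Zfp750_KO minus control (points, bars ± SE), in the limma fit with the group and the macrophage score (red circles) and with the group alone (grey squares), genes grouped by role. Stars mark the 7 genes with an adjusted p under 0.05 in the fit with the score; no gene has one in the fit with the group alone, where the bars are longer for most genes.

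The early, mevalonate part of the pathway joins acetyl-CoA units and turns them into isoprenoids. Hmgcs1 (ENSMUSG00000093930, chromosome 13), which makes HMG-CoA, had 1838, 1967, 1004 and 1395 in Zfp750_KO and 1326, 866 and 833 in control. It rose by a log2 difference of 0.67 ± 0.15 (SE, adjusted p = 0.0428). Control 4F, with the fewest leukocyte transcripts, lay above Zfp750_KO 3F, so the groups overlapped. Idi1 (ENSMUSG00000058258, chromosome 13), which interconverts the isoprenoid units, had 681, 604, 438 and 663 in Zfp750_KO and 472, 264 and 276 in control. It rose with a log2 difference of 0.88 ± 0.18 (SE, adjusted p = 0.0362), and only control 4F reached into the Zfp750_KO range.

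Mvd, which makes isopentenyl diphosphate, had 107, 67.6, 115 and 136 in Zfp750_KO and 48.8, 28.9 and 73.1 in control. The difference was 0.96 ± 0.34 (SE, adjusted p = 0.712) with the group alone and 0.93 ± 0.30 (SE, adjusted p = 0.145) with the score, neither past the threshold, and control 7F lay above Zfp750_KO 2M. Acat2, the cytosolic thiolase that starts the pathway, had 256, 180.3, 146 and 138 in Zfp750_KO and 169, 88.4 and 83.7 in control, with 0.71 ± 0.19 (SE, adjusted p = 0.0873) in the fit with the score. A near-identical mouse copy, Acat3, is known, so reads may have been split between them. Mvk and Pmvk, the kinases of mevalonate and its phosphate, did not pass either, at 0.57 ± 0.25 (SE, adjusted p = 0.289) and 0.31 ± 0.26 (SE, adjusted p = 0.614) with the score. Pmvk was at 29.9 to 73.7 in Zfp750_KO and 31.5 to 38.1 in control, and Mvk at 60.9 to 143 in Zfp750_KO and 60.7 to 101 in control.

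The middle part builds squalene and closes it into lanosterol. Fdps, which makes farnesyl diphosphate, had 175, 189, 85.5 and 153 in Zfp750_KO and 147, 49.6 and 87.7 in control, and Fdft1, squalene synthase, had 426, 319, 221 and 252 in Zfp750_KO and 299, 139 and 170.1 in control. Neither passed in the fit with the score, at 0.74 ± 0.26 (SE, adjusted p = 0.166) and 0.66 ± 0.18 (SE, adjusted p = 0.0848). In each, both Zfp750_KO libraries with little Ptprc (1M and 2M) lay above control 4F.

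Sqle (ENSMUSG00000022351, chromosome 15), the squalene epoxidase and a rate-limiting step, had 952, 919.5, 286 and 389 in Zfp750_KO and 711, 181 and 254 in control. Libraries with little Ptprc were high and the others low in both groups, so that the 2 ranges overlapped broadly. The difference was 0.78 ± 0.59 (SE, adjusted p = 0.9996) with the group alone and 0.94 ± 0.18 (SE, adjusted p = 0.0245) with the score, in which Sqle rose. Lss, which closes the sterol ring, ran with it at 414, 325, 178 and 238 in Zfp750_KO and 271, 134 and 151 in control. It did not pass, at 0.69 ± 0.18 (SE, adjusted p = 0.0734).

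Cyp51 (ENSMUSG00000001467, chromosome 5), the lanosterol demethylase, had the largest log2 difference of the 30 genes in both fits. Its values were 1123, 1051, 702 and 931 in Zfp750_KO and 584, 324 and 441 in control, on average 952 ± 184 in Zfp750_KO and 449.9 ± 130.3 in control (SD, n = 4 and 3), a ratio of means of 2.12. The lowest Zfp750_KO library lay above the highest control library. The difference was 1.08 ± 0.26 (SE, adjusted p = 0.376) with the group alone, and Cyp51 rose with 1.13 ± 0.17 (SE, adjusted p = 0.00892) with the score. Leaving out control 4M took the adjusted p to 0.0614, and the difference remained past the threshold in the other 17 of 18 alternatives.

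Msmo1 (ENSMUSG00000031604, chromosome 8), the next enzyme in the demethylation of the sterol ring, was also higher in every Zfp750_KO library, with 622, 569, 424 and 531 in Zfp750_KO and 338, 234 and 282 in control. The means were 536 ± 83.8 in Zfp750_KO and 285 ± 52.4 in control (SD, n = 4 and 3), a ratio of 1.88, and the groups did not overlap. The difference was 0.89 ± 0.21 (SE, adjusted p = 0.376) with the group alone, and it rose with 0.92 ± 0.15 (SE, adjusted p = 0.0144) with the score. It remained past the threshold in 16 of 18 alternatives and was lost without control 4M and without control 7F.

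None of the later enzymes passed in either fit. Ebp, the sterol isomerase, had 414, 297, 242 and 302 in Zfp750_KO and 221, 198 and 195 in control, with no overlap, and differences of 0.56 ± 0.22 (SE, adjusted p = 0.78) with the group alone and 0.59 ± 0.18 (SE, adjusted p = 0.12) with the score. Nsdhl, which acts with Msmo1, had 198, 155, 90.2 and 80.6 in Zfp750_KO and 99.1, 67.0 and 100.1 in control, with 0.50 ± 0.25 (SE, adjusted p = 0.35) in the fit with the score. Its high Zfp750_KO values were those of the libraries with little Ptprc. Sc5d, the desaturase, and Dhcr7, which makes cholesterol in the last step, were at 0.33 ± 0.14 (SE, adjusted p = 0.254) and 0.21 ± 0.20 (SE, adjusted p = 0.659) with the score. Sc5d was at 301 to 446 in Zfp750_KO and 259 to 383 in control. Dhcr7 hardly varied in Zfp750_KO, at 206 to 223, while control ran from 152 to 293. Tm7sf2, a sterol reductase, was on the lower side, at -0.21 ± 0.23 (SE, adjusted p = 0.721), with 42.2 to 83.7 in Zfp750_KO and 48.0 to 99.3 in control.

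Hsd17b7, the ketosteroid reductase, had 512, 504, 249 and 213 in Zfp750_KO and 333, 377 and 353 in control. With the score its difference was 0.01 ± 0.26 (SE, adjusted p = 0.988). The 2 Zfp750_KO libraries with little Ptprc lay above all 3 controls and the other 2 lay below all 3. The group by score interaction was -0.31 ± 0.07 (SE) with a limma adjusted p of 0.0222, the only one of the 30 to pass, against 6.44% of all genes. That count does not exceed the share over all genes. The interaction rests on control 4F, the only control with little Ptprc, and it was 0.08 with an adjusted p of 0.9998 without that library. It also did not pass without Zfp750_KO 1M, control 4M or control 7F.

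Srebf2, the gene of the factor itself, had 2306, 2395, 2627 and 3001 in Zfp750_KO and 1878, 2108 and 2164 in control, without overlap between the groups. The difference was small, 0.33 ± 0.17 (SE, adjusted p = 0.98) with the group alone and 0.30 ± 0.13 (SE, adjusted p = 0.283) with the score, and did not pass. Insig1, which holds the complex in place and is itself an SREBP target, had 1952, 2031, 1333 and 1174 in Zfp750_KO and 1192, 1133 and 1004 in control. Zfp750_KO 6F alone reached into the control range, lying below control 4F, and the difference with the score was 0.55 ± 0.16 (SE, adjusted p = 0.105). Insig2, its paralogue, had 578, 406, 241 and 207 in Zfp750_KO and 1075, 340.0 and 382 in control, and Scap, the escort of SREBP, had 1124, 1031, 621 and 626 in Zfp750_KO and 925, 684 and 663 in control. Their differences with the score were -0.51 ± 0.19 (SE, adjusted p = 0.198) and 0.19 ± 0.14 (SE, adjusted p = 0.56). In Insig2, control 4F was far above every other library, and both Zfp750_KO libraries lay below the controls among the libraries with much Ptprc and among those with little.

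Stard4 (ENSMUSG00000024378, chromosome 18), a carrier of sterol between membranes, had 325, 385, 468 and 552 in Zfp750_KO and 195, 284 and 242 in control. The means were 433 ± 98.8 in Zfp750_KO and 240.2 ± 44.3 in control (SD, n = 4 and 3), a ratio of 1.80, and the groups did not overlap. The difference was 0.81 ± 0.24 (SE, adjusted p = 0.544) with the group alone, and Stard4 rose with 0.76 ± 0.16 (SE, adjusted p = 0.0372) with the score. Scarb1 (ENSMUSG00000037936, chromosome 5), the HDL receptor SR-BI that takes up cholesteryl ester and also lets sterol out, had 652, 577, 602 and 803 in Zfp750_KO and 449, 309.8 and 314 in control. Its groups did not overlap either, with means of 658 ± 101 in Zfp750_KO and 358 ± 79.2 in control (SD, n = 4 and 3) and a ratio of 1.84. The difference was 0.87 ± 0.21 (SE, adjusted p = 0.378) with the group alone, and it rose with 0.88 ± 0.19 (SE, adjusted p = 0.0371) with the score. Stard4 and Scarb1 each passed in 10 of 18 alternatives, Hmgcs1 and Idi1 in 11 and Sqle in 13. Of the 7 alternatives that leave out a library, Stard4, Scarb1 and Idi1 each passed in 1, Hmgcs1 in 2 and Sqle in 3. Stard4 and Scarb1 did not pass with Ptprc or with a fibroblast score in place of the macrophage score.

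Npc1 and Npc2 together release cholesterol from lysosomes. Npc1 had 1733, 1702, 1919.5 and 1414 in Zfp750_KO and 1622, 1059 and 1229 in control and Npc2 had 2414, 2086, 4347 and 4346 in Zfp750_KO and 2426, 3385 and 3384 in control. Neither passed, at 0.41 ± 0.17 (SE, adjusted p = 0.24) and -0.03 ± 0.16 (SE, adjusted p = 0.951) with the score. Npc2 was high in the libraries with much Ptprc of both groups.

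None of the LXR and efflux genes passed in either fit, and 3 of the 4 had differences below 0 in both. Abca1, which loads cholesterol onto apolipoprotein A-I, had 4947, 5172, 5911 and 5316 in Zfp750_KO and 7788, 6857 and 7652 in control. The means were 5336 ± 412 in Zfp750_KO and 7432 ± 503 in control (SD, n = 4 and 3), a ratio of 0.718, and every Zfp750_KO library lay below every control library. The difference was -0.48 ± 0.18 (SE, adjusted p = 0.749) with the group alone, at an unadjusted p of 0.0307, and -0.48 ± 0.16 (SE, adjusted p = 0.15) with the score, so it did not pass in either fit. Abcg1, which exports sterol to HDL, had 1128, 1427, 3126 and 2691 in Zfp750_KO and 903, 1717 and 1989 in control, and Mylip, which marks lipoprotein receptors for degradation, had 1489, 1692, 972 and 1016 in Zfp750_KO and 1889, 1284 and 1375 in control. Their differences with the score were 0.28 ± 0.16 (SE, adjusted p = 0.419) and -0.19 ± 0.13 (SE, adjusted p = 0.542). Abcg1 was highest in the libraries with much Ptprc and Mylip in those with little, in each group. Nr1h3, the LXR-alpha gene, was low, at 35.4 to 84.5 in Zfp750_KO and 38.7 to 84.0 in control, with -0.11 ± 0.24 (SE, adjusted p = 0.88) with the score. The 3 LXR-regulated genes Abca1, Abcg1 and Mylip had differences on both sides of 0.

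The slope on the macrophage score, in the same fit, says how each gene followed that score within the groups. Keratinocyte, smooth muscle and fibroblast genes all ran against the score within both groups. The keratinocyte sums were 2630 and 1120 per M in Zfp750_KO 1M and 2M and 2930 per M in control 4F. In the libraries with high scores they were 323 to 746 per M. The smooth muscle sums were 1070, 1130, 243 and 306 per M in Zfp750_KO and 576, 136 and 130 per M in control. The fibroblast sums were 103000, 114000, 17700 and 50800 per M in Zfp750_KO and 179000, 150000 and 88100 per M in control. Which cell content a slope follows was not tested. Of the 30 genes, 11 fell with the score, against 21.2% of all genes tested, and 2 rose, against 21.8%. Those that fell were 8 synthesis enzymes (Acat2, Hmgcs1, Fdps, Fdft1, Sqle, Lss, Cyp51 and Sc5d), Scap, Insig2 and Mylip, and those that rose were Npc2 and Abcg1. The steepest fall was that of Sqle, with a slope of -0.37 ± 0.04 (SE, adjusted p = 0.000245), followed by Insig2 with -0.30 ± 0.05 (SE, adjusted p = 0.00107). The steepest rise was that of Abcg1, with 0.27 ± 0.04 (SE, adjusted p = 0.000842), and Npc2 had 0.18 ± 0.04 (SE, adjusted p = 0.00677). Scaling moved this split: with values scaled to column totals, under which the median slope of all genes was 0.05 in place of -0.01, 3 of the 30 fell (Sqle, Lss and Insig2), against 13.1% of all genes, and 6 rose (Tm7sf2, Srebf2, Stard4, Npc2, Abcg1 and Nr1h3), against 29.6%. The slopes of 15 of the 18 enzymes were below 0 under each of the 3 scalings, with a median of -0.13 as deposited, -0.06 by column totals and -0.12 by upper quartiles. The median slope of all genes was -0.01, 0.05 and 0.002 in the same order. As deposited, 9306 of the 18141 genes tested had a slope below 0, a count not worked out for the other scalings.

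**Figure D4:**
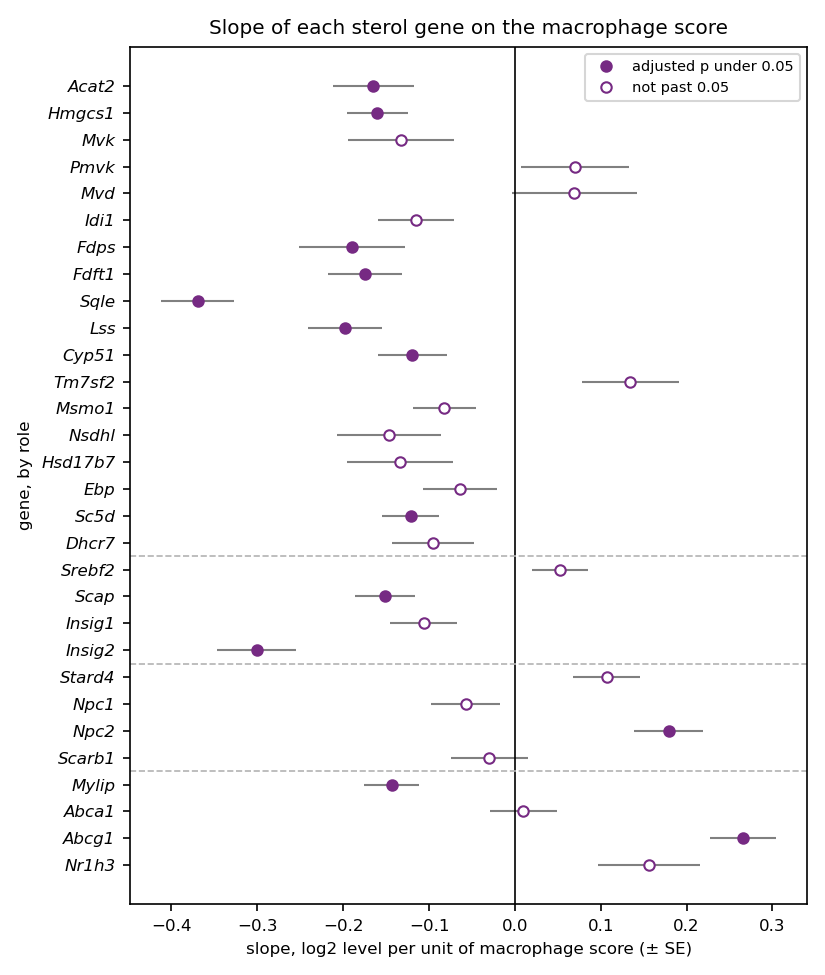
Slope of each gene's log2 level per unit of macrophage score (points, bars ± SE) in the limma fit with group and score, genes grouped by role; filled points have an adjusted p under 0.05. Most synthesis enzymes lie left of 0, with Sqle furthest at -0.37, and Npc2 and Abcg1 lie right of 0 as filled points.

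The libraries can also be read within coarse classes of Ptprc level. Split at 100 Ptprc per M, Zfp750_KO 3F and 6F and control 4M and 7F hold much Ptprc, and Zfp750_KO 1M and 2M and control 4F hold little. Within Zfp750_KO the split coincides with the letter of the library name, M for little and F for much. The split does not match cell content between the groups. Ptprc itself was above every control in both Zfp750_KO libraries on each side, with ratios of means of 1.75 (much Ptprc) and 8.96 (little). Col1a1 was below on each side, with ratios of 0.233 and 0.513. Both Zfp750_KO libraries were above every control for 20 of the 30 genes where Ptprc was high, against 28.8% of all genes, and for 22 where it was low, against 39.9%. For 17 genes, 11 of them synthesis enzymes, this held on both sides, against 14% of all genes. Cyp51 had a ratio of means of 2.13 in the libraries with much Ptprc and 1.86 in those with little, Msmo1 had 1.85 and 1.76, and Stard4 had 1.94 and 1.82. Scarb1 had 2.25 and 1.37. The side with little Ptprc has 1 control, so it carries no replicate error for that group. A limma fit on the 4 libraries with much Ptprc called 7 of the 30, all higher: Mvd, Idi1, Cyp51, Msmo1, Stard4, Scarb1 and Abcg1, against 4.85% of all genes.

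**Figure D5:**
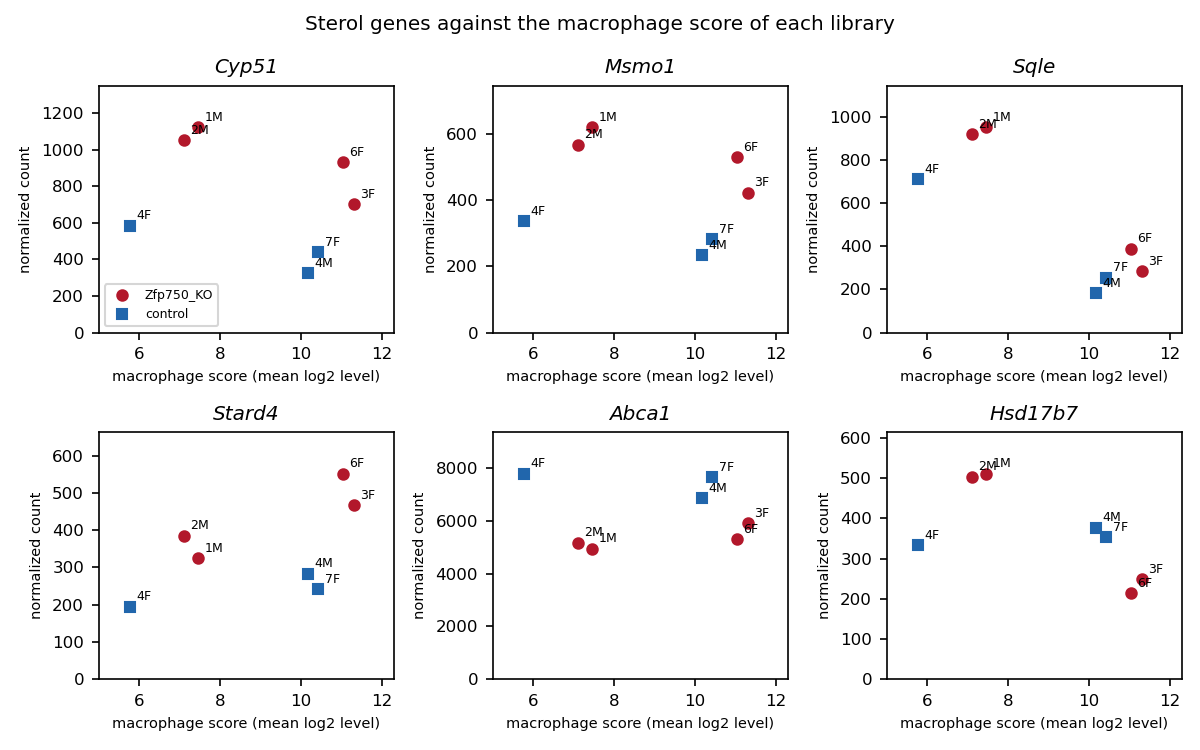
Normalized count of 6 genes (vertical axes from 0) against the macrophage score of each library (horizontal axes, mean log2 level), with Zfp750_KO as red circles and control as blue squares, labelled by library. Cyp51, Msmo1 and Stard4 are higher in Zfp750_KO at low and at high scores, Sqle drops with the score in both groups, Abca1 is lower in Zfp750_KO throughout, and Hsd17b7 crosses over.

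Of 81 tested genes of sterol and lipid metabolism in lists that do not overlap with the 30, 2 rose (2.47%) and 2 fell (2.47%) in the fit with the score, against 1.32% and 2.1% of all genes. None of the 12 isoprenoid branch genes, of the 11 SREBP processing genes or of 15 tested SREBP fatty acid targets passed. The fatty acid targets had a median log2 difference of -0.09 with the score and -0.15 with the group alone, with 4 of 15 above 0 with the group alone. The desaturases Scd2 and Scd1, with the highest means of that list, were at -0.12 ± 0.15 (SE, adjusted p = 0.735) and -0.25 ± 0.39 (SE, adjusted p = 0.813). Nus1, a subunit of the dolichol-making enzyme, was at 0.32 ± 0.15 (SE, adjusted p = 0.313) and Icmt, which methylates prenylated proteins, at 0.16 ± 0.15 (SE, adjusted p = 0.673). The SREBP protease Mbtps1 was at -0.08 ± 0.17 (SE, adjusted p = 0.866).

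None of 7 tested storage genes passed. Soat1, which esterifies cholesterol, was at 0.39 ± 0.17 (SE, adjusted p = 0.286) and Plin2, a lipid droplet coat protein, at 0.34 ± 0.15 (SE, adjusted p = 0.274). None of 4 oxysterol enzymes passed, Cyp27a1, the sterol 27-hydroxylase, being at -0.74 ± 0.17 (SE, adjusted p = 0.0538) and Hsd3b7 at 0.11 ± 0.20 (SE, adjusted p = 0.838). With the score 3 of these 4 differences were above 0, against 52.4% of all genes. The 2 enzymes not named here were higher in Zfp750_KO without overlap between the groups, against 3.19% of all genes. Of 11 sterol transfer genes 1 fell, Osbpl1a, an oxysterol-binding protein relative, with 242, 253, 159 and 132 in Zfp750_KO and 447, 285 and 289.8 in control, and a difference of -0.70 ± 0.16 (SE, adjusted p = 0.0465). Of 9 lipoprotein and scavenger receptors 1 rose, the macrophage scavenger receptor Msr1, with 64.5, 41.5, 1171 and 691 in Zfp750_KO and 0, 152 and 263 in control, and a difference of 1.16 ± 0.21 (SE, adjusted p = 0.0232). Of 12 LXR partners and targets 1 rose and 1 fell. Arl4c, a small GTPase gene regulated by LXR, had 1358, 2015, 3211 and 2532 in Zfp750_KO and 176, 940.0 and 1306 in control, without overlap, and rose with 1.66 ± 0.32 (SE, adjusted p = 0.0259). Pltp, the phospholipid transfer protein, had 419, 323, 2716 and 2891 in Zfp750_KO and 704, 4158 and 3503 in control and fell with -1.36 ± 0.21 (SE, adjusted p = 0.011).

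Markers of other cell types differed between the libraries as follows, and apart from the macrophage and fibroblast scores used as covariates their part in the differences above was not tested. The 21 macrophage and monocyte genes summed to 576 to 11400 per M in Zfp750_KO and 208 to 6210 per M in control, and among them Cd163 fell in the fit with the score. The 10 fibroblast genes summed to 17700 to 114000 per M in Zfp750_KO and 88100 to 179000 per M in control, and none passed. The 5 smooth muscle genes summed to 243 to 1130 per M in Zfp750_KO and 130 to 576 per M in control, and all 5 rose in the fit with the score. The 5 T cell genes summed to 10.1 to 106 per M in Zfp750_KO and 1.35 to 30 per M in control, and none passed. The 5 endothelial genes summed to 74.4 to 215 per M in Zfp750_KO and 66.6 to 150 per M in control, and 1 of them, Tek, fell. The 8 proliferation genes summed to 139 to 363 per M in Zfp750_KO and 207 to 315 per M in control, and none passed. The 11 keratinocyte genes summed to 323 to 2630 per M in Zfp750_KO and 323 to 2930 per M in control, and none passed. Of 9 sebocyte genes 4 were tested and none passed, while Awat1, Awat2, Cidea and Plin5, which include the wax synthases that define that cell, were under the filter. The 3 adipocyte genes Adipoq, Plin1 and Cidec were also under the filter and summed to 0.513 to 4.95 per M in Zfp750_KO and 0.528 to 2.41 per M in control. Mogat1 of the sebocyte list and Lep of the adipocyte list were not analysed here. Exons of Fdps, Fdft1, Cyp51, Tm7sf2 and Npc1 overlap those of another protein-coding gene in GENCODE M21 (Gm43738, Ctsb, Akap9, Vps51 and Rmc1 in that order), and the strand setting of the counting is not given in the sources used here, so reads could have been shared between them.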

How the data were processed

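RNA from tdTomato-sorted skin cells was extracted with a PureLink kit and made into NEBNext Ultra II libraries, per the labels' protocols. Per the submitters' processing notes, TopHat2 2.1.0 and Partek 9.0.20.0202 were used, in roles that are not stated. Neither genome build nor strand setting is given in the sources used here. Per the file headers, the deposited values are counts normalized by the authors, treated here as a signal and not as raw counts. The share of values below 200 reads that came out whole, within 0.02 reads, was 77.9% to 79.5%, so whole reads were not recovered and no count test was run. Estimated totals of 9.09 to 17.1 M reads put an estimated 22 to 10060 reads behind a value of these genes. Column names give the group and a short tag but match no sample title, so columns were assigned to groups without replicate numbers, and alleles could not be tied to libraries. The letters M and F in the tags were used only as a term in an alternative, for the group differences and not for the slopes or the interaction. In Zfp750_KO, M went with little Ptprc and F with much, so letter and Ptprc level cannot be told apart within that group.

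Values were analysed as log2(value + 11.9), the pseudocount being 1 per M of the median total. Limma 3.58.1 in R 4.3.3 (lmFit, eBayes with a trend) was fitted with the group alone, with the macrophage score, and with their interaction, leaving 5, 4 and 3 residual degrees of freedom; the fits were tested on simulated data. All 30 genes are named, with full statistics for those past 0.05 or, where none passes, for the 6 with the smallest p; other lists are described by up to 3 genes past the threshold or the 2 with the highest means. The genes, lists, score and tests were chosen with earlier results of these data known. A list of rate-setting and receptor genes, and a gene of another list, are not reported here. Alternatives were other pseudocounts, filters, scalings, covariates and library weights, robust moderation, a subset of libraries, and leaving out each library. Promoter windows were matched to RefSeq by symbol, and nuclear coordinates of the deposited table were not used.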

Additional observations from a re-analysis of the deposited data

Results flagged for a closer look

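Hsd17b7 is the only gene of the 30 whose group by score interaction passed the threshold, against 6.44% of all genes tested. That count does not exceed the share over all genes. The Hsd17b7 interaction was -0.306 log2 units per unit of score (limma adjusted p = 0.0222, 3 residual degrees of freedom). Zfp750_KO 1M and 2M had 512 and 504, and 3F and 6F had 249 and 213, against 333, 377 and 353 in control 4F, 4M and 7F. Control 4F is the only control with a low score, and without it the interaction was 0.085 (adjusted p = 0.9998). The interaction also did not pass without Zfp750_KO 1M, control 4M or control 7F. No value of the 30 genes in the 4 Zfp750_KO libraries stood apart by Dixon's test, which was not run on the 3 control libraries.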

How the results depend on the processing

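With the group alone, 0 of the 30 genes passed in limma (8 at an unadjusted p under 0.05), and leaving out each library also gave 0. Library weights gave 18, of which 17 were higher and 1 lower, against 10.4% and 10.5% of all genes. The weights were largest for control 7F (3.99), Zfp750_KO 2M (2.94), Zfp750_KO 1M (1.97) and control 4M (1.63). They were 0.325 for control 4F, 0.309 for Zfp750_KO 6F and 0.265 for Zfp750_KO 3F. The weighted fit with the group alone thus mainly set knockouts with little Ptprc against controls with much. It cannot separate the group from Ptprc level. The 4 libraries with much Ptprc gave 7. The median difference of the synthesis enzymes was 0.95 with weights, and 0.41 to 0.85 with a library left out, against 0.59. With the macrophage score, 7 passed; it was 4 with Ptprc (against 0.733% of all genes higher) or with a fibroblast score (2.69%) in its place, and 0 to 8 with a library left out. The median of the enzymes was then 0.56 to 0.72, against 0.67. Slopes passed for 9 to 15 of the 30 with a library left out, against 32.8% to 43.6% of all genes, and the interaction for 0 to 1, against 0.0276% to 6.91%. The Zfp750 difference was -1.92 to -0.69 with a library left out, and -1.74 and -0.93 with a pseudocount of 2.39 and 59.7.

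Some differences changed sign, among them those of Insig2 (-0.64) and Abcg1 (0.40) with the group alone. With library weights and the group alone, Hsd17b7 was 0.37, Insig2 0.14, Npc2 -0.48, Mylip 0.15 and Abcg1 -0.37; with the score, Hsd17b7 was -0.22, Npc2 0.070 and Nr1h3 0.024. Among the libraries with much Ptprc, Scap was -0.11 and Nr1h3 0.10. With the score, Hsd17b7 was -0.018 by upper quartiles, and with the letter as a term Hsd17b7 was -0.11 and Npc2 0.016. With a library left out and the group alone, Scap ranged from -0.021 to 0.28, Nr1h3 from -0.25 to 0.21, Hsd17b7 from -0.23 to 0.18, Npc2 from -0.12 to 0.24 and Tm7sf2 from -0.34 to 0.10. With the score, Hsd17b7 ranged from -0.39 to 0.18, Npc2 from -0.11 to 0.15 and Nr1h3 from -0.33 to 0.065. The Hsd17b7 interaction ranged from -0.35 to 0.085. The cause was not tested. None of these reversed differences passed the threshold as reported except that interaction. No paired analysis was possible because the columns carry no replicate numbers of the labels. With 7 libraries, a gene that did not pass is not shown to be alike in Zfp750_KO and control.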

Other observations

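Of 7 tested genes of sterol storage and hydrolysis, 3 rose with the macrophage score (Soat1, Plin2 and Soat2), against 21.8% of all genes, and 4 did not pass, with slopes of 0.03 for Nceh1, 0.11 for Lipa, -0.20 for Lcat and -0.12 for Sult2b1. Soat1, which esterifies cholesterol, had values of 1129, 1013, 4015 and 3848 in Zfp750_KO and 732, 1813 and 2004 in control, and its slope on the macrophage score was 0.40 (limma adjusted p = 0.000149). Plin2, which coats lipid droplets, had 926, 618, 2000 and 1846 in Zfp750_KO and 437, 1197 and 1202 in control, with a slope of 0.33 (limma adjusted p = 0.000165). In both genes every library with much Ptprc lay above every library with little.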
